A study of Solanum lycopersicum with 12 samples.

Results

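The plant cuticle is the layer of polyester and lipid that epidermal cells lay down on their outer wall, and it limits the loss of water from leaves. Its polyester, cutin, is built from fatty acids that are hydroxylated by cytochrome P450 enzymes, joined to glycerol by acyltransferases and linked into a polymer outside the cell by an enzyme of the GDSL family. The waxes that fill and cover it derive from very-long-chain fatty acids, and transcription factors of the homeodomain and AP2/ERF families are known to control genes of both branches. Many of these roles in tomato were worked out in mutants with thin or water-permeable fruit cuticles.

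Of 8 selected gene identifiers, 7 matched a row of the count table, which lists 34075 gene models. They are the transcription factors CD2 (Solyc01g091630) and SHN1 (Solyc03g116610), the cutin genes CYP86A69, also called CD3 (Solyc08g081220), GPAT6 (Solyc09g014350) and CD1 (Solyc11g006250), and the wax genes CER6 (Solyc02g085870) and CER3 (Solyc03g117800). The names came with the selection. The eighth, SHN3 (Solyc06g053240), another AP2/ERF factor, was not analysed here. All 7 passed the filter on low counts.

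The counts come from RNA sequencing of tomato (Solanum lycopersicum) leaves in 4 groups of 3 libraries. They are control leaves, leaves under salinity, leaves under heat, and leaves under both stresses, which is called the combination. The salt dose, temperature, duration and cultivar are not stated in the labels. Nor do the labels say whether the libraries of a group came from separate plants, so the p-values measure the spread between these libraries, which may be technical. Levels are given as CPM, which are counts divided by the scaled library size. In such bulk leaf samples, fewer epidermal cells and less RNA per cell cannot be told apart. Because the gene models could not be joined to an annotation, the leaf label was not checked against marker genes, gene lengths were not used, and levels were not compared between genes.

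Total counts lay between 56281339 and 78370751 per library, where 3 counts equal 0.0326 to 0.0668 CPM. The scaling factors of the libraries ran from 0.668 in salinity replicate 2 to 1.23 in combination replicate 1. The next lowest was 0.880 in control replicate 3, so values of salinity replicate 2 depend most on the scaling. Salinity replicate 1 and combination replicate 2 stood apart from their groups. The 4 within-group pairs that include one of them had correlations of log2 CPM between 0.967 and 0.969, against 0.976 to 0.984 for the other 8 pairs. Both libraries also lay at the edge of their group for most of the cuticle genes. In a group of 3 this holds for all but the middle library at any gene, so it does not set them apart. Calls of these genes that change without one of them are given both ways.

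CD2, a transcription factor, was lower in both groups that received salt, by 1.98-fold in salinity and 1.80-fold in the combination against control. CD1, which links cutin into a polymer, was lower in both heated groups, by 8.94-fold in heat and 6.75-fold in the combination. Its salinity libraries also all lay below control, a step that was not called (adjusted p = 0.0634 by edgeR). CYP86A69, a fatty acid hydroxylase, was called lower than control in salinity and higher in the combination than in salinity. CER3, an alkane gene, was 2.22-fold higher in the combination than in control, a call made in 9 of these 12 fits. CER6, GPAT6 and SHN1 were not called in any of the 3 comparisons with control.

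**Figure D1:**
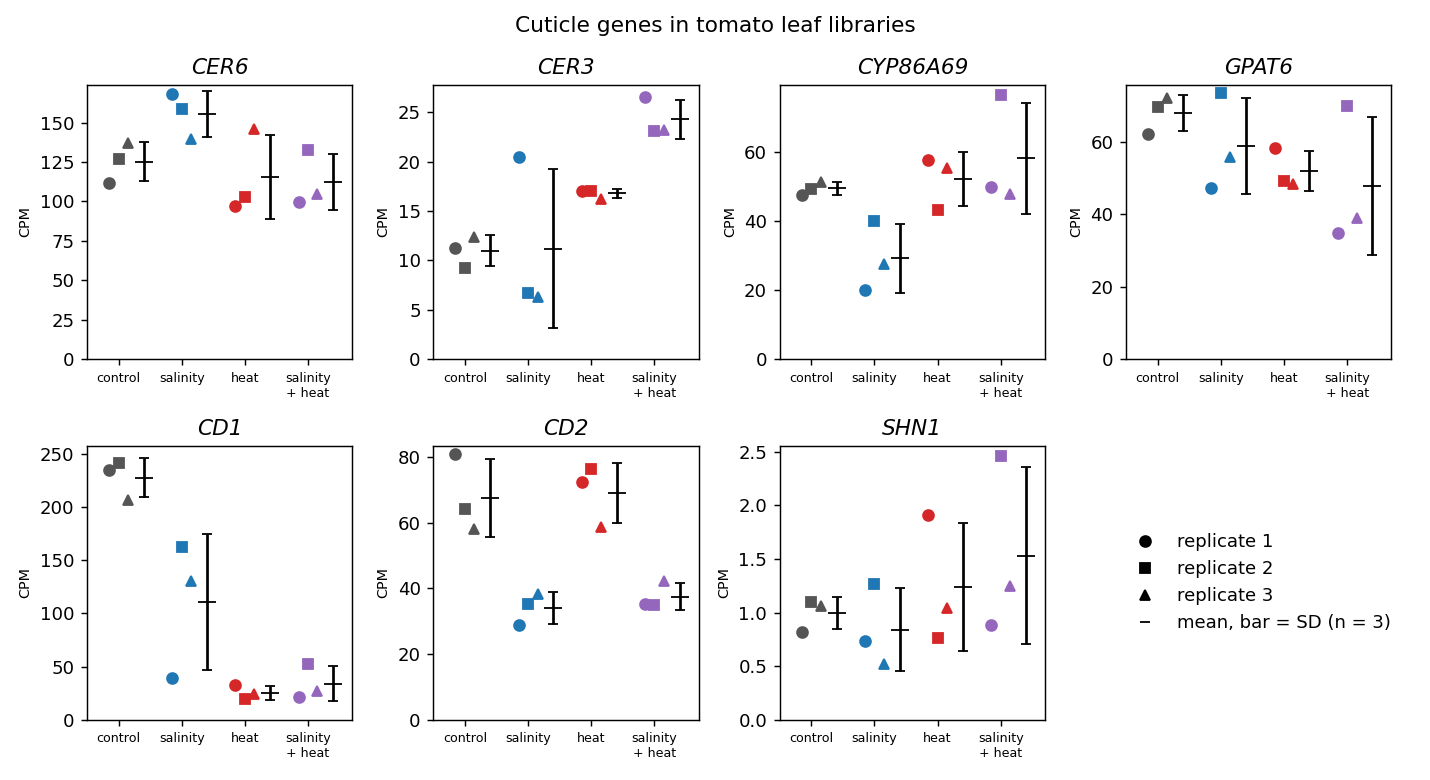
Levels in CPM (vertical axes, from 0) of 7 cuticle genes in each library of the 4 groups; symbols mark replicates 1 to 3, and the black marks give the mean and SD (n = 3). CD2 lies between 28.8 and 42.3 CPM in both groups with salt and between 57.9 and 80.8 CPM in the other 2. CD1 lies at 52.5 CPM or below in both heated groups, and at 39.3 CPM in salinity replicate 1.

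Expression was compared with edgeR's quasi-likelihood test on all 12 libraries, with Benjamini-Hochberg adjustment over the 20717 gene models tested. A gene is described as called, higher or lower where the adjusted p was under 0.05. Salinity against control asks what salt changed, and 2 of the 7 genes were called there, both lower, where 47.4% of all tested gene models were called and 23.8% were lower. Heat against control called 1 of 7, lower, with 39.9% of all tested gene models called and 15.2% lower. The combination against control called 3 of 7, 1 higher and 2 lower, beside a background of 32.5% (17.5% higher and 15.1% lower). Adding heat to salinity, read from the combination against salinity, called 4 of 7, 2 in each direction, with a background of 44.5%. The combination against heat called 1 of 7, where the background was 40.3%. Groups that did not overlap were common. In salinity against control this held for 11581 of the 20717 tested gene models and for 4 of the 7 genes. The numbers were 11876 and 3 in heat against control, and 9581 and 3 in the combination against control. In the combination against salinity they were 10662 and 3, and in the combination against heat 11639 and 2. With 7 genes, none of these shares is read as differing from the background, and what follows describes single genes. Each result was refitted under up to 19 alternatives, of which 12 each left out a library and 7 changed another setting.

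The median log2 fold change of the 7 genes was -0.26 in salinity against control, 0.032 in heat against control and -0.16 in the combination against control. Over all tested gene models these medians were 0.045, 0.14 and 0.025. The comparisons with control share the control libraries.

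CD2 encodes a homeodomain-leucine zipper factor of class IV, and tomato cd2 mutants have fruit with little cutin. Its control libraries stood at 80.8, 64.0 and 57.9 CPM and its heat libraries at 72.3, 76.2 and 58.8 CPM. The salinity libraries gave 28.8, 35.2 and 38.2 CPM and the combination libraries 35.2, 35.0 and 42.3 CPM. Each library with salt lay below each library without it, and the 2 groups of each kind overlapped.

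CD2 was at 67.6 ± 11.8 CPM in control, 34.0 ± 4.81 CPM in salinity, 69.1 ± 9.12 CPM in heat and 37.5 ± 4.18 CPM in the combination (means and SD of 3 libraries). Salinity lowered it 1.98-fold against control (log2 fold change -0.99, SE 0.17, edgeR adjusted p = 0.000653). Adding salinity to heat lowered it 1.84-fold (log2 fold change -0.88, SE 0.17, edgeR adjusted p = 0.00245). The combination was 1.80-fold below control (log2 fold change -0.85, SE 0.17, edgeR adjusted p = 0.00245).

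Heat alone gave CD2 a log2 fold change of 0.032 (95% interval -0.33 to 0.39), and heat added to salinity one of 0.14 (-0.22 to 0.50), neither of them called by edgeR (adjusted p = 0.893 and 0.524). The sign of the change under heat alone differs between scalings of the libraries and is not read. The order of the groups was heat, control, combination and salinity. Only the step from control to the combination exceeded the spread. The interaction, which is the log2 change in the combination less those of both single stresses, was 0.11 (95% interval -0.41 to 0.62, adjusted p = 0.81 by edgeR). The salinity call, the combination call and the combination against heat call of CD2 were each made in all 19 alternative fits.

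SHN1 encodes an AP2/ERF factor of the SHINE clade, whose Arabidopsis relatives raise wax and cutin genes. It had few counts, from 33 in salinity replicate 3 to 195 in combination replicate 2. Its levels were 0.823, 1.10 and 1.06 CPM in control, 0.730, 1.27 and 0.516 CPM in salinity, 1.91, 0.764 and 1.05 CPM in heat, and 0.880, 2.46 and 1.25 CPM in the combination. All 4 groups overlapped, and no neighbours in the order combination, heat, control and salinity differed beyond their spread.

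By Poisson intervals, the spread within the combination was wider than counting error. The exact Poisson interval (95%) of combination replicate 2 ran from 2.12 to 2.83 CPM and that of combination replicate 1 from 0.699 to 1.09 CPM. These intervals cover counting error only, and they do not overlap. They are too narrow if both mates of a pair were counted. The largest log2 fold change of SHN1 against control was 0.62 in the combination (95% interval -0.37 to 1.60, adjusted p = 0.319 by edgeR). Without combination replicate 2 the value was 0.022 (adjusted p = 0.976), and it ran from 0.022 to 0.90 over the 12 edgeR fits that left out a library, with adjusted p from 0.175 to 0.976 and no call.

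Among the cutin genes, CYP86A69 encodes a cytochrome P450 that hydroxylates the end of the fatty acid chain. Its libraries stood at 47.5, 49.3 and 51.3 CPM in control and at 20.1, 39.9 and 27.6 CPM in salinity. In heat they gave 57.5, 43.1 and 55.3 CPM, and in the combination 49.8, 76.4 and 47.8 CPM. The salinity libraries lay below all 9 others, and the other 3 groups overlapped.

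CYP86A69 averaged 49.3 ± 1.93 CPM in control, 29.2 ± 9.98 CPM in salinity, 52.0 ± 7.77 CPM in heat and 58.0 ± 16.0 CPM in the combination (means and SD of 3 libraries). Salinity alone lowered it 1.69-fold (log2 fold change -0.76, SE 0.24, edgeR adjusted p = 0.0204). That call was lost without salinity replicate 1 (log2 fold change of -0.55, adjusted p = 0.069) and without salinity replicate 3 (-0.72, adjusted p = 0.0588), and adjusted p ran from 0.00496 to 0.069 over the 12 edgeR fits that each left out a library. In the combination CYP86A69 was 1.99-fold above salinity (log2 fold change 0.99, SE 0.24, edgeR adjusted p = 0.00556), a call made in all 19 alternatives.

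The combination did not differ detectably from control for CYP86A69, with a log2 fold change of 0.23 (95% interval -0.28 to 0.75, adjusted p = 0.483 by edgeR). The sum of the single-stress changes was -0.68 on the log2 scale. The interaction was 0.92 (SE 0.34), with unadjusted p = 0.0182 and adjusted p = 0.107 by edgeR, and was not called. It was called with total counts in place of scaling factors (1.08, adjusted p = 0.0277) and without salinity replicate 2 (1.21, adjusted p = 0.0396). Adjusted p for it ran from 0.0396 to 0.21 over the fits that left out a library.

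GPAT6 encodes a glycerol-3-phosphate acyltransferase that joins hydroxylated fatty acids to glycerol. It stood at 62.2, 69.6 and 71.9 CPM in control and 47.2, 73.4 and 55.8 CPM in salinity. The heat libraries gave 58.3, 49.1 and 48.2 CPM, all below control, and the combination libraries 34.9, 69.7 and 38.8 CPM. Salinity and the combination each overlapped with control through their replicate 2. For salinity the overlap depends on the scaling. Salinity replicate 2 had 3295 of 67267531 counts, and control replicate 1 had 3324 of 56281339. With total counts in place of scaling factors, all salinity libraries lay below all control libraries.

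The order of GPAT6 was control, salinity, heat and combination, with means of 67.9 ± 5.07, 58.8 ± 13.3, 51.9 ± 5.59 and 47.8 ± 19.1 CPM (means and SD of 3 libraries), and no comparison of it was called with all libraries. In the combination against control its log2 fold change was -0.51 (95% interval -1.03 to 0.014, adjusted p = 0.125 by edgeR). Without combination replicate 2 it was -0.96 with adjusted p = 0.00289, over a range of adjusted p from 0.00289 to 0.353 in the 12 edgeR fits that left out a library. That library thus decides whether GPAT6 is called lower in the combination. Heat against control was also called without it (-0.53, adjusted p = 0.0223, against 0.21 with all libraries; range 0.0223 to 0.369). So was the combination against salinity, at -0.71 with adjusted p = 0.00817, where all libraries gave -0.30 with adjusted p = 0.331 by edgeR (range 0.00817 to 0.765). With only the groups compared, heat against control was called as well (-0.49, adjusted p = 0.0186). Combination replicate 2 is in neither group of heat against control. Leaving it out lowered the median change there, taken over the 20717 gene models, from 0.14 to 0.0050. With only the groups compared that median was 0.042. Both calls of GPAT6 in heat against control thus came with a lower median across gene models. Whether they are specific to GPAT6 was not tested.

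CD1 encodes the GDSL enzyme that links glycerol-bound fatty acids into cutin, and tomato cd1 mutants lack most of the polymer in their fruit cuticle. Its control libraries stood at 235, 242 and 207 CPM. The heat libraries gave 32.5, 19.5 and 24.4 CPM and the combination libraries 21.8, 52.5 and 26.9 CPM. All heated libraries lay below all control libraries, and the heat and combination groups overlapped.

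Salinity placed CD1 at 39.3, 163 and 130 CPM. All 3 values lay below control, and salinity replicate 1 lay within the range of the combination. Group means were 228 ± 18.6 CPM in control, 111 ± 64.0 CPM in salinity, 25.5 ± 6.56 CPM in heat and 33.7 ± 16.4 CPM in the combination (means and SD of 3 libraries).

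Heat alone lowered CD1 8.94-fold (log2 fold change -3.16, SE 0.46, edgeR adjusted p = 0.000564). In that comparison 211 of the 20717 tested gene models had a lower log2 fold change. The combination was 6.75-fold below control (log2 fold change -2.75, SE 0.46, edgeR adjusted p = 0.000803), and 245 gene models had a lower value. Heat added to salinity lowered CD1 3.28-fold (log2 fold change -1.71, SE 0.44, edgeR adjusted p = 0.00754). These 3 calls were made in all 19 alternatives.

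The step from control to salinity was not called for CD1. Its log2 fold change was -1.04 (95% interval -1.98 to -0.10), with unadjusted p = 0.0321 and adjusted p = 0.0634 by edgeR. Of 19 alternatives, 5 called it, among them the Wald test of DESeq2 (adjusted p = 0.0342) and the fits without salinity replicate 2 (-1.43, adjusted p = 0.0325) and without combination replicate 2 (-1.08, adjusted p = 0.032). Without salinity replicate 1 the log2 fold change was -0.64, and adjusted p ran from 0.032 to 0.132 over the edgeR fits that left out a library. In the order control, salinity, combination and heat, the step from salinity to the combination was the one called between neighbours, although salinity replicate 1 lay among the combination libraries. Control and salinity did not overlap, although that step was not called.

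Both single stresses together would sum to a log2 fold change of -4.20 for CD1, and the combination stood at -2.75. In CPM, the product of the single-stress ratios gives 12.4 CPM against the 33.7 CPM observed. The interaction was 1.45 (SE 0.61), with unadjusted p = 0.0341 and adjusted p = 0.154 by edgeR, and no alternative called it.

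**Figure D2:**
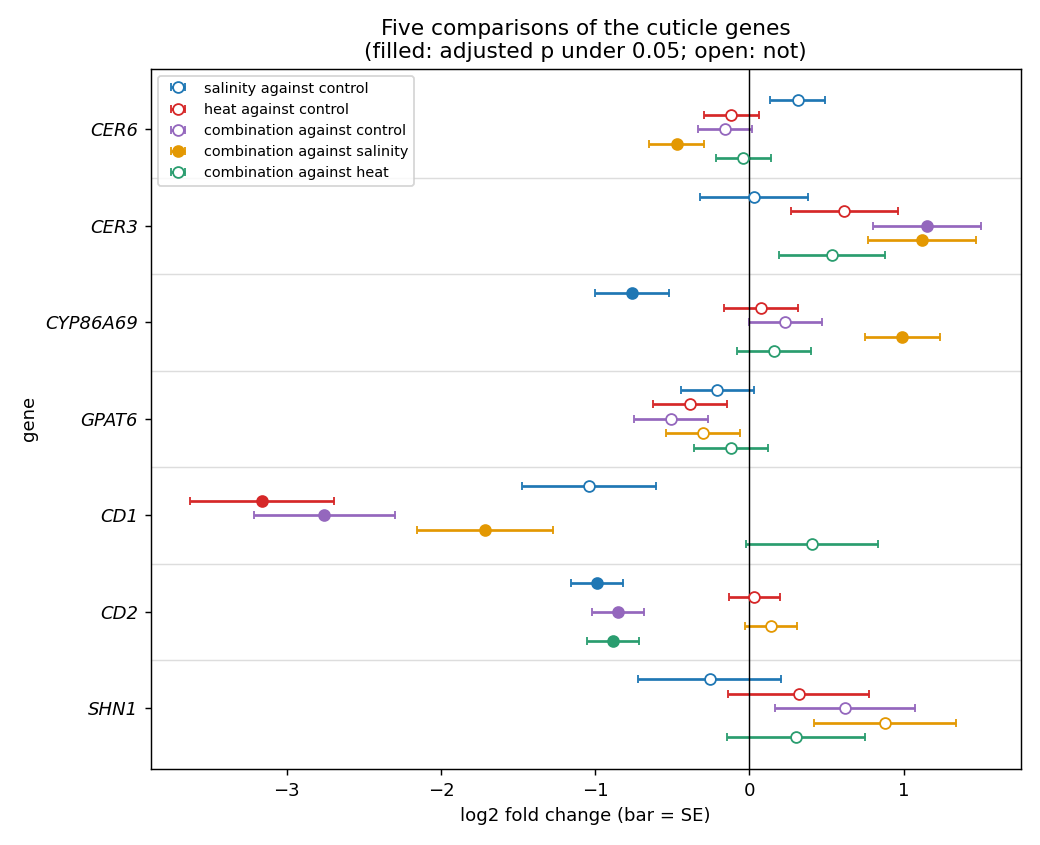
Log2 fold changes (horizontal axis, bars are SE) of the 7 genes in 5 comparisons, from the edgeR fit to 12 libraries; filled symbols have an adjusted p under 0.05. CD1 is at -3.16 in heat and -2.75 in the combination against control, while CD2 is at -0.99 in salinity and -0.85 in the combination against control, and at -0.88 in the combination against heat.

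Of the wax genes, CER6 encodes a ketoacyl-CoA synthase that elongates very-long-chain fatty acids, and tomato plants without it have fruit and leaves short of the longest alkanes. Its libraries stood at 112, 127 and 137 CPM in control, 168, 159 and 140 CPM in salinity, 97.4, 103 and 146 CPM in heat, and 99.7, 133 and 104 CPM in the combination. In CPM, the 3 salinity libraries lay above the 3 control libraries and the 3 combination libraries. This depends on the scaling. Salinity replicate 2 had 7125 of 67267531 counts, and control replicate 1 had 5988 of 56281339. With total counts in place of scaling factors, salinity replicate 2 lay below all control and combination libraries. Heat, control and combination overlapped, and heat replicate 3, at 146 CPM, lay within the salinity group.

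CER6 averaged 125 ± 12.6 CPM in control, 155 ± 14.4 CPM in salinity, 115 ± 26.5 CPM in heat and 112 ± 17.8 CPM in the combination (means and SD of 3 libraries). Salinity against control gave a log2 fold change of 0.31 (95% interval -0.07 to 0.70, adjusted p = 0.166 by edgeR) and was not called. The combination was called lower than salinity (log2 fold change -0.47, SE 0.18, edgeR adjusted p = 0.0476). That call lay at the threshold and was made in 6 of 19 alternatives, and the value was -0.066 with total counts in place of scaling factors. Without salinity replicate 1 it was -0.41 (adjusted p = 0.108; range 0.0212 to 0.16 over the edgeR fits that left out a library). No step between neighbours in the order salinity, control, heat and combination was called, although salinity and control did not overlap in CPM.

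CER3 acts in the step that turns very-long-chain acyl chains into alkanes, a role known from Arabidopsis, where it works with CER1. Its libraries stood at 11.2, 9.25 and 12.4 CPM in control, 17.1, 17.0 and 16.2 CPM in heat, and 26.6, 23.1 and 23.2 CPM in the combination. These 3 groups did not overlap, with control lowest and the combination highest. The salinity libraries gave 20.5, 6.72 and 6.32 CPM. Salinity replicate 1 thus lay above all control and heat libraries, and the other two lay below all control libraries.

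CER3 was 2.22-fold higher in the combination than in control, at 24.3 ± 1.98 against 10.9 ± 1.58 CPM (means and SD of 3 libraries). The edgeR fit put the log2 fold change at 1.15 (SE 0.35, adjusted p = 0.0247). The value stayed between 1.04 and 1.25 over the 12 fits that left out a library, and 9 of them called it. The call was lost without control replicate 1 (1.17, adjusted p = 0.0673), control replicate 2 (1.04, adjusted p = 0.0883) or combination replicate 1 (1.08, adjusted p = 0.0623). In these edgeR fits adjusted p ran from 0.000114 to 0.0883.

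Heat alone, at 16.8 ± 0.482 CPM, gave CER3 a log2 fold change of 0.61 (SE 0.35) with adjusted p = 0.173, and the combination against heat 0.54 (SE 0.35) with adjusted p = 0.23, neither of them called by edgeR. The shared estimate of the spread of CER3 includes the scatter in salinity. The biological coefficient of variation estimated for it was 30.2%, against 20.3% for the trend at its level. With only the libraries of the groups compared, both steps were called by edgeR, at 0.51 (adjusted p = 0.0247) for heat against control and 0.57 (adjusted p = 0.0131) for the combination against heat. The same setting lost the call of the combination against salinity (1.09, adjusted p = 0.0692).

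Salinity replicate 1 decided what CER3 showed under salinity. With all libraries the salinity mean was 11.2 ± 8.05 CPM (n = 3), and the log2 fold change against control was 0.031 (adjusted p = 0.949 by edgeR). Without that library it was -0.75 with adjusted p = 0.00318, over a range of adjusted p from 0.00318 to 0.995 in the edgeR fits that left out a library. The same omission called CER3 higher in heat against control (0.62, adjusted p = 0.00526; range 0.00526 to 0.351) and in the combination against heat (0.54, adjusted p = 0.00933; range 0.00933 to 0.365). It also called the interaction of CER3, at 1.28 with adjusted p = 0.0074, where all libraries gave 0.50 with adjusted p = 0.554 (range 0.0074 to 0.793 by edgeR). Heat against salinity moved from 0.58 (adjusted p = 0.151) to 1.36 (adjusted p = 4.49e-05; range 4.49e-05 to 0.45) and was called. The combination against salinity was 1.12 (SE 0.35) with adjusted p = 0.0208 by edgeR, 1.90 without salinity replicate 1, and 0.86 and 0.83 without salinity replicates 2 and 3, where the call was lost. It was also lost without combination replicate 1 (1.05, adjusted p = 0.0617; range 3.55e-05 to 0.0807).

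**Figure D3:**
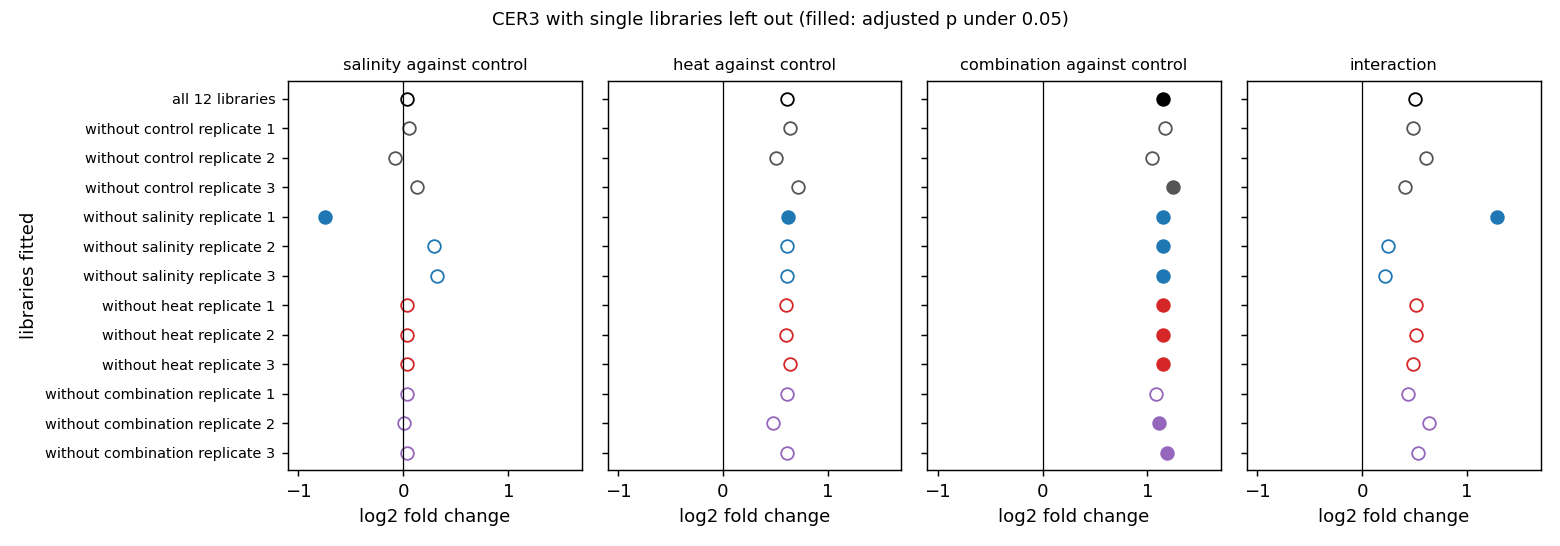
Log2 fold change of CER3 (horizontal axes) in 3 comparisons with control and in the interaction, with all 12 libraries and with each library left out in turn (vertical axis); filled symbols have an adjusted p under 0.05 by edgeR. Without salinity replicate 1 the change under salinity moves from 0.031 to -0.75 and the interaction from 0.50 to 1.28, while the combination against control stays between 1.04 and 1.25.

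The same library was the lowest of the salinity group for CD1, CD2, CYP86A69 and GPAT6 and the highest for CER3 and CER6. Combination replicate 2 was the highest of its group for CD1, CYP86A69, GPAT6, CER6 and SHN1, and by little the lowest for CD2 and CER3. Whether a shared cause lies behind these positions was not tested.

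None of the 7 genes had an interaction call by edgeR, where 8.94% of all tested gene models were called. At an unadjusted p under 0.05 there were 2, CD1 and CYP86A69, where 26.2% of all tested gene models were under it. The Wald test of DESeq2 called 0 of the 7, beside 16.5% of all tested gene models. The interactions of CER6 (-0.35, 95% interval -0.90 to 0.19), GPAT6 (0.089, -0.64 to 0.82) and SHN1 (0.56, -0.84 to 1.96) had intervals that include 0.

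The direct comparison of heat with salinity called 4 of the 7 genes by edgeR, where 68.4% of all tested gene models were called. CD2 was 2.03-fold higher in heat (log2 fold change 1.02, SE 0.17, edgeR adjusted p = 0.000191), and CYP86A69 was 1.78-fold higher (log2 fold change 0.83, SE 0.24, edgeR adjusted p = 0.0081). CD1 was 4.35-fold lower in heat (log2 fold change -2.12, SE 0.45, edgeR adjusted p = 0.00106). All 3 were called in each of the 19 alternatives. CER6 was lower in heat (log2 fold change -0.43, SE 0.18, edgeR adjusted p = 0.0466), which 8 of 19 alternatives called. Without salinity replicate 1 that value was -0.37 (adjusted p = 0.111; range 0.00706 to 0.173 over the edgeR fits that left out a library).

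Ratios of counts between genes within a library do not depend on how the libraries were scaled. The ratio of CD1 to GPAT6, the last cutin step against the acyltransferase, was 3.78, 3.47 and 2.87 in the control libraries and 0.832, 2.22 and 2.33 in the salinity libraries. In heat it was 0.558, 0.397 and 0.506, and the combination gave 0.625, 0.753 and 0.694. Control, heat and the combination did not overlap with each other. The ratio in heated libraries of either kind was below that of each library without heat.

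The ratio of CYP86A69 to GPAT6 averaged highest in the combination. Control gave 0.728 ± 0.0302 and salinity 0.488 ± 0.0593, whereas heat gave 1.00 ± 0.137 and the combination 1.25 ± 0.167 (means and SD of 3 libraries). Salinity lay below control, control below heat, and heat overlapped with the combination. These ratios within the cutin branch thus did not stay the same across the groups. How often ratios of other gene pairs separate in this way was not examined.

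For the wax genes, the ratio of CER3 to CER6 was 0.0878 ± 0.0138 for control and 0.0698 ± 0.0451 for salinity, and it was 0.151 ± 0.0345 for heat and 0.221 ± 0.0461 for the combination (means and SD of 3 libraries). All heat and combination libraries lay above all control libraries. The salinity value rests on replicate 1, whose ratio of 0.122 lay above control, while the other salinity libraries, at 0.0424 and 0.0452, lay below every control library.

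Across the branches, the ratio of CYP86A69 to CER6 was between 0.120 and 0.251 in the salinity libraries and between 0.374 and 0.590 in the other 9. The ratio of CD1 to CER6 was between 1.51 and 2.10 in control and lay below that in every other library, at 0.167 to 0.334 in heat, 0.219 to 0.396 in the combination and 0.234, 1.03 and 0.932 in salinity. The ratio of the regulator CD2 to CER6 was between 0.423 and 0.721 in control, above all libraries with salt, which ran from 0.171 to 0.405. Heat replicate 3, at 0.403, lay just below the highest of these. With 3 libraries against 3, the lowest two-sided p of an exact permutation test is 0.1, so these ratios are given without tests.

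**Figure D4:**
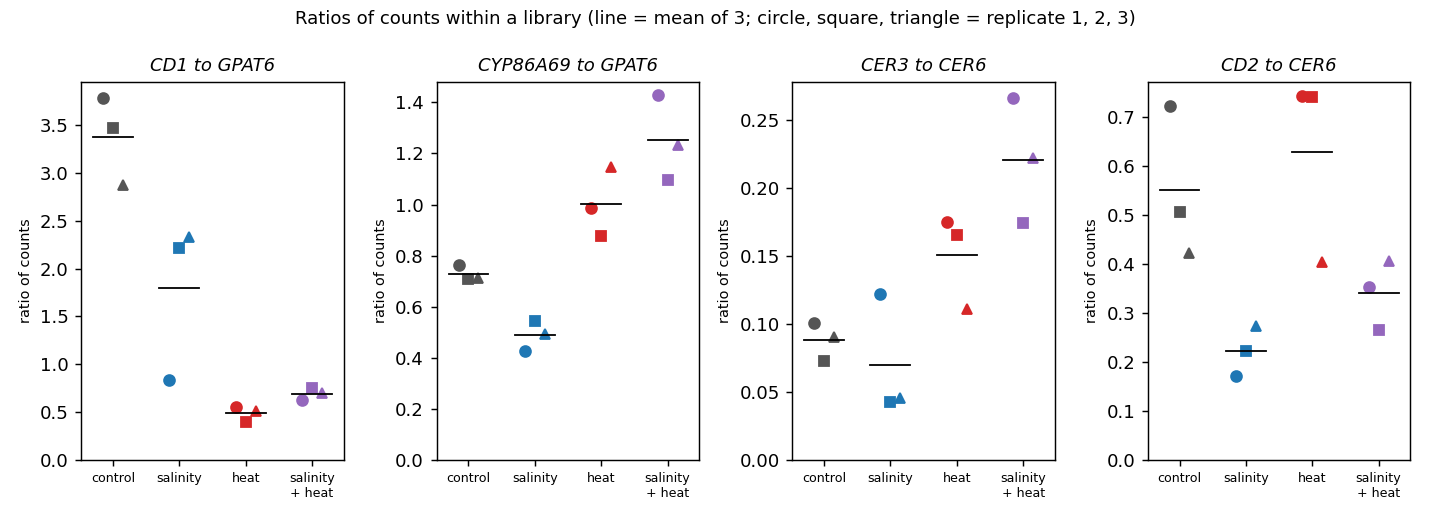
Ratio of the counts of gene pairs (vertical axes, from 0) in each library of the 4 groups; circles, squares and triangles are replicates 1, 2 and 3, and lines are means of 3 libraries. The ratio of CD1 to GPAT6 averages 3.38 in control and 0.487 in heat, and that of CER3 to CER6 averages 0.0878 in control and 0.221 in the combination.

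A list of 9 further gene identifiers, chosen as cuticle genes, was followed beside these genes. Their role in cuticle formation was not checked. No source used here pairs them with names, so they are given mostly as counts. All 9 passed the filter on low counts. In salinity against control, 4 of 9 were lower and 0 higher, beside 23.8% lower and 23.6% higher over all tested gene models. Heat against control called 4 lower and 1 higher (background 15.2% lower and 24.6% higher), and the combination against control 3 lower and 1 higher (15.1% and 17.5%). Leaving out single libraries gave 3 to 4 calls in salinity, 3 to 5 in heat and 2 to 7 in the combination, where 7 came without combination replicate 2 and 2 without control replicate 1 or 2 or combination replicate 1 or 3. The 3 in heat came without any one of the heat libraries, control replicate 2 or 3, salinity replicate 3 or combination replicate 1. Their median log2 fold changes were -0.55, -0.091 and -0.26 in these comparisons, and 0 of 9 had an interaction call by edgeR, with 1 at an unadjusted p under 0.05 and 0 by DESeq2, beside the 8.94%, 26.2% and 16.5% of all tested gene models given above.

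The largest change of the list in salinity was in Solyc01g109180, at 11.6 CPM in control, 3.13 CPM in salinity, 13.1 CPM in heat and 6.59 CPM in the combination (means of 3 libraries). The edgeR fit put the log2 fold change under salinity at -1.89 (SE 0.27, adjusted p = 0.000217). It was also lower in the combination against heat, at -0.99 (SE 0.26) with adjusted p = 0.0106 in the same test. In heat the called increase was that of Solyc12g006530, from 6.54 to 16.8 CPM (log2 fold change 1.36, SE 0.26, edgeR adjusted p = 0.00248). It was higher in the combination as well, at 15.1 CPM (log2 fold change 1.21, SE 0.26, edgeR adjusted p = 0.00394). The 4 decreases called in heat ran from -0.52 in Solyc03g065250 (edgeR adjusted p = 0.0494) to -2.61 in Solyc12g009490 (0.00496). The latter averaged only 0.249 CPM in control. Between them lay Solyc05g055400 at -1.47 (0.00665) and Solyc01g094750 at -0.95 (0.0478).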

How the data were processed

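The authors deposited one table of raw counts, with a row per gene model and a column per library. Trimmomatic 0.33 and Bowtie2 2.3.4 are named in the submitters' processing notes, and the table's name points to the ITAG annotation of tomato. The counting program, strandedness and treatment of multiply mapped reads are not given in the sources used here, so counts of similar or overlapping gene models are uncertain. Between 65.98% and 69.83% of counts from 1 to 20 were even in each library. If both mates of a pair were counted, Poisson intervals are too narrow.

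edgeR 4.0.16 in R 4.3.3 was fitted to 20717 gene models left by filterByExpr, with TMM factors and the 4 groups as the only factor. The SE was derived from the log2 fold change and the F statistic of its test (their ratio after taking the root of F). Replicate pairs were checked with a chi-square statistic, and none was a duplicate. The model was run on simulated counts with 200 changed gene models in the heat group only. Far more gene models were called in these data, so that run cannot judge the scaling or the calls here. Alternatives were other scalings and filters, DESeq2 1.42.0, a replicate block, subsets of groups and leaving out each library. Correlations were taken on log2 CPM (prior count 2).

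The genes, the list and the tests were chosen with earlier results of these data known. The direct comparison of heat with salinity was added after the data were seen. The rule for names covered the selected genes, the 8 largest changes of the list and the 3 most similar gene models of each gene. The reference table used here carries no tomato Solyc identifiers, so few unnamed gene models are printed, marker lists were not used, and no sequences or coordinates are shown.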

Additional observations from a re-analysis of the deposited data

How the results depend on the processing

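Numbers of called genes moved by more than 1.5 times in few settings. With only the groups compared, the calls were 3 for heat against control, 2 for the combination against salinity and 2 for the combination against heat. Total counts in place of scaling factors gave 1 interaction call, and 2 calls in the list of 9 for the combination against control. Under the replicate block, the list had 3 calls for heat against control, in place of 5, and the combination against salinity had 3 of the 7 genes in place of 4, since CER6 was not called (-0.48, adjusted p of 0.0536 by edgeR). The numbers are not stated to mark a shared batch. Correlations of the deviations of same-numbered libraries ran from -0.48 to 0.35, and 4 of 12 libraries correlated best with their own number.

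Leaving out single libraries gave 1 to 3 calls for salinity against control, 1 to 2 for heat against control, 2 to 5 for the combination against salinity, 1 to 2 for the combination against heat and 0 to 1 for the interaction. In the list of 9 it gave 2 to 7 for the combination against control and 3 to 5 for heat against control.

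Changes near 0 took the other sign in some settings. The value of CD2 in heat against control was -0.064 with DESeq2 size factors and with the Wald test and -0.072 with only the groups compared. That of CYP86A69 was -0.020 with both DESeq2 settings and -0.026 with only the groups compared. CER6 in the combination against heat was 0.018 with both DESeq2 settings. CER3 in salinity against control was -0.021 with only the groups compared and -0.099 with the block. Total counts turned CER6 in heat (0.18) and in the combination (0.12) against control, and GPAT6 in the combination (0.13) and in heat (0.29) against salinity. Total counts also moved the median of all tested gene models, from 0.14 to 0.44 in heat against control, from 0.025 to 0.32 in the combination against control and from 0.078 to 0.50 in the combination against salinity. Only CER3 was called with the other sign, without salinity replicate 1.

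With single libraries left out, these log2 values crossed 0. For CD1 the combination against heat ran from -0.0010 to 0.64. For CD2, heat against control ran from -0.11 to 0.18 and the interaction from -0.041 to 0.26. CER3 in salinity ran from -0.75 to 0.32 and CER6 in the combination against heat from -0.15 to 0.16. CYP86A69 ran from -0.088 to 0.35 in the combination and from -0.061 to 0.19 in heat against control, and from -0.026 to 0.28 in the combination against heat. GPAT6 ran from -0.43 to 0.065 in the combination against heat, from -0.32 to 0.0097 in heat against salinity and from -0.18 to 0.28 in the interaction. SHN1 ran from -0.67 to 9.0e-05 in salinity and from -0.13 to 0.57 in heat against control, and from -0.16 to 0.75 in the combination against heat. The causes of these shifts were not tested. SHN1 had the fewest counts of the 7 genes, and its estimated biological coefficient of variation was 38.8%.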

Other observations

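All gene models averaging 5 CPM or more were ranked by the Pearson correlation of their log2 CPM with each gene over the 12 libraries, as a description. The libraries share treatments, so the values mostly follow the groups. CD1 had 134 of 11587 gene models above 0.9, and the closest, Solyc11g031960.2.1, reached 0.989 (Spearman 0.965). CD2 had 330 above 0.9, whereas CER3 had 16, CYP86A69 had 15, CER6 had 9 and GPAT6 had 7.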
